A study of Mus musculus with 8 samples.

Results

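The mitochondrial ribosomal proteins described here are the genes whose mouse symbol begins with Mrpl or Mrps followed by a number. Of the 10987 transcripts with deposited values, 60 met this rule, which reads the symbol alone, although the gene family was taken up with earlier results of these data known. They comprise 36 proteins of the large subunit (mt-LSU), 23 of the small subunit (mt-SSU) and Mrps36, which carries a small subunit name but is now assigned to the α-ketoglutarate dehydrogenase complex. Mrps18a is counted with the mt-LSU, where its product resides despite its name. All 60 had a mean of at least 1 FPKM in both kinds of library, and 0 were listed at 0 in any library. Further mitoribosome genes, such as Mrpl4 and Mrps16, were not analysed here.

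Mitochondrial ribosomes translate the few messages encoded by mitochondrial DNA, all of which are core subunits of the respiratory chain and the ATP synthase. Their ribosomal RNAs are made inside the organelle, whereas every one of their proteins is encoded in the nucleus, translated by cytosolic ribosomes and imported. Some of these proteins have bacterial homologues and the others are specific to mitochondrial ribosomes. Oligodendrocytes, the myelinating cells of the central nervous system, and their progenitors (OPCs) both rely on mitochondria, and inherited defects of mitochondrial translation can damage white matter.

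The study compared OPCs, made from epiblast stem cells of 129S/SvEv mice, with oligodendrocytes differentiated from them in vitro. OPCs were grown with PDGFA and bFGF, each at 20 ng/mL. Oligodendrocytes were harvested after 3 days in medium holding thyroid hormone T3 at 40 ng/mL, IGF-1 and noggin each at 100 ng/mL, NT3 at 10 ng/mL and cyclic AMP at 10 uM, with neither PDGFA nor bFGF. Each cell type was represented by 2 cultures, and each culture gave 1 ribosome footprint library, from lysate digested with micrococcal nuclease (MNase), and 1 RNA-seq library from undigested lysate, for 8 libraries in all. Lysates of several plates were pooled within a culture, and some cells of the differentiated cultures remain OPCs according to the study, so the values are averages over mixed cells. Fewer cells of a type and less RNA per cell cannot be told apart in them. FPKM are fragments per kilobase, scaled to the mapped reads of the library, taken over the whole transcript for RNA-seq and over the coding sequence (CDS) for footprints. RD, the ribosome density, is footprint FPKM over RNA-seq FPKM of the same culture.

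Read counts were not used here, and depth was estimated from the smallest steps between low values. It came to between 93.0 and 249 megabases aligned for footprints and between 77.9 and 241 megabases for RNA-seq. Other step sizes that scored higher would give between 414 and 558 megabases for footprints and between 332 and 483 megabases for RNA-seq. Depth and its order between libraries are therefore uncertain, by more than a factor of 2 in some libraries. By the first estimate it was lowest in oligodendrocyte replicate 2 for both kinds of library. The estimated reads behind a member ran from 17.6, for Mrps18b in the RNA-seq of that culture, to 1780, and these limits cover counting error only. The 9 oligodendrocyte markers listed summed to 34.3 and 37.0 FPKM in the OPC RNA-seq and to 3752 and 3275 FPKM in oligodendrocytes. The 6 OPC markers did not fall with differentiation, and 4 of them, Pdgfra among them, were higher in oligodendrocytes. The 3 proliferation markers listed, Top2a, Ccnb1 and Pcna, were all lower, with sums of 295 and 420 FPKM in OPC RNA-seq against 107 and 128 FPKM. Of the astrocyte markers, 2 of 4 rose in RNA-seq, and Gfap stood at 14.2 and 2.11 FPKM in the 2 oligodendrocyte libraries against 0.16 and 0 FPKM in OPCs. Csf1r and P2ry12, the 2 microglia markers listed, stayed below 1 FPKM in every library. The 4 neuron markers summed to 21.6 and 15.5 FPKM in OPC RNA-seq and to 44.2 and 47.6 FPKM in oligodendrocytes, and 1 of them, Tubb3, rose in RNA-seq (log2 1.45, limma adjusted p = 0.0087) and in footprints (log2 1.297, limma adjusted p = 0.012). The part of these other cells' markers in the members' values was not tested.

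The median member stood above the median transcript in RNA-seq and in footprints. Over all 4 RNA-seq libraries the median member had a mean of 35.03 FPKM, against 12.5 FPKM for the transcripts tested, and in footprints it had 95.9 FPKM against 20.7 FPKM. The means of members spanned 36.8-fold in RNA-seq and 17.8-fold in footprints. The 60 transcripts together accounted for 0.935% and 0.986% of the summed RNA-seq FPKM in OPCs, and for 0.784% and 0.858% in oligodendrocytes. In footprints these shares were 1.02% and 1.09% in OPCs and 0.870% and 0.941% in oligodendrocytes. The oligodendrocyte cultures therefore had the lower share in both kinds of library, with no overlap between the groups.

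Members of 1 particle did not share 1 level. By the mean over both cell types, Mrpl33, one of the smallest proteins of the mt-LSU, was the highest in both kinds of library. Its RNA-seq values were 155 and 172 FPKM for OPCs, with 158 and 213 FPKM for oligodendrocytes. Its footprint values were 617 and 756 FPKM for OPCs, with 564 and 723 FPKM for oligodendrocytes. Its groups overlapped in both kinds of library, and 37.0% of its transcript lies within exons of the same-strand gene model Gm43809. Mrpl20, which is among the proteins that bind the mitochondrial 16S rRNA early, followed with 165 and 183 FPKM in OPCs against 145 and 166 FPKM in oligodendrocytes in RNA-seq, and with 463 and 486 FPKM against 364 and 424 FPKM in footprints. By the same mean over both cell types, Mrpl52 and Mrps6 came next in RNA-seq and Mrps6 and Mrpl52 in footprints. In OPC RNA-seq alone Mrpl52 was the highest of all members, at 218 and 204 FPKM, and Mrpl20 also stood above Mrpl33. Mrpl53 was the fifth in RNA-seq by this mean, at 85.3 and 79.5 FPKM in OPCs against 80.4 and 75.04 FPKM in oligodendrocytes. All of its transcript is shared with the gene model Gm42688. In OPC RNA-seq alone other members stood above it, such as Mrps17 at 93.6 and 97.4 FPKM. Mrps17 was the fifth in footprints by the same mean, at 314 and 309 FPKM in OPCs against 205 and 176 FPKM.

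At the other end, Mrpl48 had 4.86 and 5.03 FPKM in OPC RNA-seq and 6.05 and 2.97 FPKM in oligodendrocyte RNA-seq, the lowest of the 60. Mrpl19 had 6.20 and 7.20 FPKM in OPCs against 5.85 and 5.36 FPKM in oligodendrocytes, and the others of the lowest 5 were Mrps25, Mrpl35 and Mrps35. Mrps25 had 9.22 and 8.22 FPKM in OPC RNA-seq against 5.10 and 7.03 FPKM. Mrpl35 had 8.93 and 10.7 FPKM in OPC RNA-seq against 6.42 and 7.44 FPKM, and its footprints, which were called lower, were 98.5 and 102 FPKM against 56.5 and 51.4 FPKM. For both genes the oligodendrocyte values lay below the OPC values in RNA-seq. In footprints the lowest 5 by mean were Mrpl47, Mrpl37, Mrps9, Mrpl1 and Mrpl48, the last with 37.5 and 49.6 FPKM in OPCs against 52.7 and 24.0 FPKM. Mrpl1, whose bacterial homologue forms the stalk by which deacylated tRNA leaves, had 46.7 and 53.3 FPKM in OPC footprints and 34.99 and 28.8 FPKM in oligodendrocyte footprints. Across the 60 members the mean RNA-seq and footprint levels rose together (Spearman rho 0.71, across genes of the same libraries and given as a description).

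In RNA-seq, 35% of the mitochondrial ribosomal proteins were called lower in oligodendrocytes than in OPCs, an excess over all transcripts that depended on the processing. Of the 60 members, 21 were lower past an adjusted p of 0.05 (limma, Benjamini-Hochberg over all 8346 transcripts tested) and 0 were higher, so that 35% of members were called lower against 20.2% of all transcripts. In either direction 33.2% of all transcripts were called. The remaining 39 did not pass the test, and 27 members had an unadjusted p below 0.05. The median log2 fold change over the members was -0.49, against -0.23 over all transcripts tested, and 51 of 60 were negative. In 42 members (70%) both oligodendrocyte values lay below both OPC values, compared with 44.2% of all transcripts, and in 3, Mrpl23, Mrps21 and Mrps7, both lay above, compared with 27.6%. Taken culture by culture, the median member changed by -0.53 in the first pair and by -0.48 in the second.

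How many members passed the RNA-seq test depended on the filter, on scaling, on the variance trend and on single libraries. Without the filter at a mean of 1 FPKM, 14 members (23.3%) were called lower, against 14% of all transcripts. With libraries scaled by median ratios or to equal sums, 9 members (15%) were called lower, against 15.2% and 14.7% of all transcripts, and without the variance trend 8 (13.3%), against 14.3%, so that in these 3 analyses the count stood at the background. The members' median differed from that of all transcripts by -0.25, and by -0.26 with either scaling, but by -0.11 without oligodendrocyte replicate 1 and by -0.40 without replicate 2. Without OPC replicate 1 or 2 the count was 2 (3.33%, against 2.13% of all transcripts) and 1 (1.67%, against 1.43%). Without oligodendrocyte replicate 1 or 2 it was 14 (23.3%, against 22.2%) and 6 (10%, against 11.1%), also at the background. In each case the lone culture was assumed to vary like the others.

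A larger share of members was called lower in footprints than in RNA-seq, though not in every alternative analysis. Of the 60, 26 were lower in oligodendrocytes past the threshold (43.3%, against 10.8% of the 8342 transcripts tested), 0 were higher and 34 did not pass, with 23.6% of all transcripts called in either direction, while 36 had an unadjusted p below 0.05. The median log2 fold change was -0.63 against -0.16 over all transcripts, and 56 of 60 were negative. Both oligodendrocyte values lay below both OPC values in 45 members (75%, against 37.9% of all transcripts), and above them in the 2 members Mrps12 and Mrps33 only (31.8% of all transcripts). The median member changed by -0.59 in the first pair of cultures and by -0.70 in the second. With median-ratio scaling 21 members (35%) were called lower, against 10.3% of all transcripts, and with sum scaling 10 (16.7%), against 6.75%. Without the variance trend only 2 (3.33%) were called lower, against 4.38% of all transcripts, so that the excess was gone. That share was also below the 13.3% of RNA-seq. With the cultures paired, 36.7% of members were called lower in footprints against 41.7% in RNA-seq. Without OPC replicate 1 or 2 the test called 0 members and 0 transcripts in all, and without oligodendrocyte replicate 1 or 2 it called 25 (41.7%, against 29.4% of all transcripts) and 3 members (5%, against 3.79%).

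**Figure D1:**
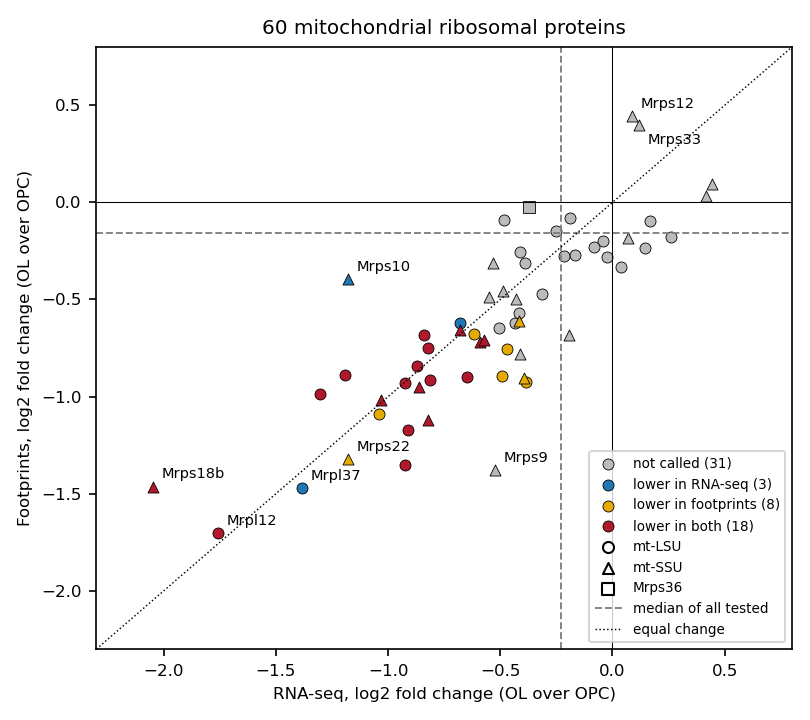
Log2 fold change (oligodendrocytes over OPCs, on log2(FPKM + 0.1)) of each of the 60 members in RNA-seq (horizontal) and in footprints (vertical), with circles for the mt-LSU, triangles for the mt-SSU, a square for Mrps36 and colour for the calls at an adjusted p of 0.05. Dashed lines are the medians of all transcripts tested, at -0.23 and -0.16, and most members lie below and to the left of both.

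Changes in both kinds of library went together, as the plot of RNA-seq against footprint changes shows. A total of 18 members (30%) were lower in both, against 8.95% of the 8056 transcripts that could be tested in both, 3 in RNA-seq only and 8 in footprints only. Neither test called the other 31. Over the members, RNA-seq and footprint changes had a Spearman rho of 0.82, across genes that share the same cultures.

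The calls were spread over both subunits. In RNA-seq 13 of 36 mt-LSU proteins and 8 of 23 mt-SSU proteins were called lower, 36.1% and 34.8% against 20.2% of all transcripts, with median log2 fold changes of -0.48 and -0.52. In footprints the counts were 16 and 10 (44.4% and 43.5%, against 10.8%) and the medians -0.63 and -0.66, and all 36 mt-LSU members were negative. Lower in both were 11 of the mt-LSU and 7 of the mt-SSU, with 8.95% of all transcripts lower in both.

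Mrpl12 had the largest fall of the mt-LSU. It forms the flexible stalk that contacts translation factors, and has also been described to bind the mitochondrial RNA polymerase. Its gene spans 5 exons at chr11:120484613-120489065 on the plus strand (GRCm38). In RNA-seq it had 83.9 and 89.4 FPKM among OPCs against 25.3 and 25.9 FPKM among oligodendrocytes, and its footprints 328 and 296 FPKM against 109.8 and 83.5 FPKM. Both oligodendrocyte cultures thus lay far below both OPC cultures in each kind of library. The fall was 3.39-fold in RNA-seq (log2 -1.76 ± 0.15 SE, limma adjusted p = 0.0014) and 3.23-fold in footprints (log2 -1.70 ± 0.18 SE, limma adjusted p = 0.010). In RNA-seq it passed the threshold in all 12 alternative analyses (adjusted p from 0.00028 to 0.043), and in footprints in 10 of 12, the exceptions being those without OPC replicate 1 (0.13) or 2 (0.13). Mrpl10, which anchors the stalk to the ribosome, had 51.7 and 47.2 FPKM in OPC RNA-seq against 37.6 and 35.4 FPKM, and did not pass the test in either kind of library.

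Proteins around the exit tunnel and the central protuberance of the mt-LSU were also among those called lower. Of 7 exit tunnel members, 3 were lower in RNA-seq (42.9%, against 20.2% of all transcripts) and 4 in footprints (57.1%, against 10.8%), which are small counts to read shares from. Mrpl22 was lower in both, with RNA-seq values of 43.2 and 45.9 FPKM against 30.6 and 20.9 FPKM. Mrpl39 and Mrpl47 were also lower in both, and Mrpl45, which holds the ribosome at the inner membrane, in footprints only, at 86.9 and 93.7 FPKM against 53.5 and 59.4 FPKM. With the cultures paired, Mrpl45 passed the threshold in RNA-seq as well (adjusted p = 0.049). Mrpl47 had footprints of 50.4 and 52.7 FPKM against 27.6 and 18.8 FPKM (log2 -1.17 ± 0.25 SE, limma adjusted p = 0.042), but missed the threshold with the cultures paired (adjusted p = 0.057). Mrpl23, Mrpl24 and Mrpl44, at the same site, were not called in either kind of library.

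Of 4 central protuberance members, Mrpl18 and Mrpl38 were lower in both kinds of library (50%, against the same 20.2% and 10.8%). Mrpl38 had 31.9 and 30.7 FPKM in OPC RNA-seq against 10.4 and 15.3 FPKM, a 2.43-fold fall (log2 -1.30 ± 0.24 SE, limma adjusted p = 0.012), and 58.7 and 60.3 FPKM against 31.7 and 28.4 FPKM in footprints. Mrpl18 had 62.7 and 69.1 FPKM against 35.7 and 33.6 FPKM in RNA-seq. Mrpl46 and Mrpl48 were not called. For Mrpl48 the oligodendrocyte cultures lay on either side of the OPC cultures in both kinds of library.

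Other mt-LSU members fell strongly. Mrpl37, which sits on the solvent side of the subunit, had 27.9 and 26.5 FPKM in OPC RNA-seq against 13.02 and 8.23 FPKM (log2 -1.38 ± 0.27 SE, limma adjusted p = 0.014). Its footprints were 58.1 and 56.7 FPKM against 28.4 and 14.9 FPKM, a 2.65-fold difference that missed the threshold (limma adjusted p = 0.056) with the oligodendrocyte cultures far apart, and passed it in 4 of 12 alternative analyses. Mrpl15 had 18.8 and 20.0 FPKM against 8.64 and 8.20 FPKM in RNA-seq, and was lower in both kinds of library. Mrpl52, among the most abundant members in OPCs, had 218 and 204 FPKM in OPC RNA-seq and 111 FPKM in both oligodendrocyte libraries, and footprints of 425 and 395 FPKM against 193 and 133 FPKM. Its footprints fell 2.51-fold and its RNA 1.90-fold. Mrpl42 was lower in footprints, at 126 and 127 FPKM against 50.6 and 69.9 FPKM. Its RNA-seq values, 57.1 and 107 FPKM against 30.7 and 47.1 FPKM, missed the threshold (limma adjusted p = 0.070), and passed it with the cultures paired (adjusted p = 0.0030). Mrpl3, at the peptidyl transferase centre, and Mrpl13 and Mrpl50 were lower in both, and Mrpl30, Mrpl35 and Mrpl51 in footprints only. The footprint call of Mrpl30 was lost with the cultures paired (adjusted p = 0.0545).

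In the mt-SSU, Mrps18b had the largest fall in RNA-seq of all 60 members. Its gene lies at chr17:35910379-35916389 on the minus strand, in 7 exons. Both OPC cultures, at 28.01 and 30.9 FPKM in RNA-seq, stood well above the oligodendrocyte cultures, at 7.89 and 6.28 FPKM, a 4.16-fold fall (log2 -2.05 ± 0.22 SE, limma adjusted p = 0.0027). Its footprints were 75.8 and 87.2 FPKM against 34.3 and 25.2 FPKM, a 2.74-fold fall (log2 -1.46 ± 0.21 SE, limma adjusted p = 0.019). The groups were well apart in both. Exons of the antisense gene model Gm16279 overlap 59.1% of this transcript, and 42.8% of the 30-base words of its CDS occur elsewhere in the genome, and the part of either in these values was not tested.

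Mrps18b is 1 of 3 mammalian paralogues of the bacterial protein S18, each of which occupies its own position. Mrps18c, the member closest in place to the bacterial protein, had 57.4 and 58.2 FPKM in OPC RNA-seq against 51.7 and 35.4 FPKM, and Mrps18a had 80.1 and 65.7 FPKM against 50.9 and 58.3 FPKM. Neither was called in RNA-seq (log2 -0.43 and -0.41) or in footprints (log2 -0.50 and -0.25). In all 3 the oligodendrocyte RNA-seq values lay below the OPC values, and whether the paralogues differ in their change was not tested.

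Further mt-SSU proteins were lower in both kinds of library. Mrps35 had 11.8 and 11.04 FPKM in OPC RNA-seq against 6.60 and 4.62 FPKM, and 85.9 and 89.2 FPKM in OPC footprints against 45.1 and 41.2 FPKM, a 2.03-fold fall in footprints. Mrps6 had 125 and 104 FPKM against 77.9 and 53.5 FPKM in RNA-seq and 567 and 447 FPKM against 273 and 196 FPKM in footprints. Its transcript shares 36.1% of its bases with same-strand exons of Slc5a3 and Gm49711. Mrps11, Mrps17, Mrps24 and Mrps28 completed this set. Mrps22 was lower in footprints, with 113 and 109 FPKM against 43.2 and 45.8 FPKM (log2 -1.32 ± 0.12 SE, limma adjusted p = 0.00815). In RNA-seq it had 33.3 and 61.9 FPKM against 15.6 and 25.7 FPKM and missed the threshold (limma adjusted p = 0.058), which it passed with the cultures paired (adjusted p = 0.0026). Mrps23 and Mrps5 were lower in footprints only. With the cultures paired, the footprint calls of Mrps5 (adjusted p = 0.082) and Mrps24 (adjusted p = 0.0545) were lost.

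**Figure D2:**
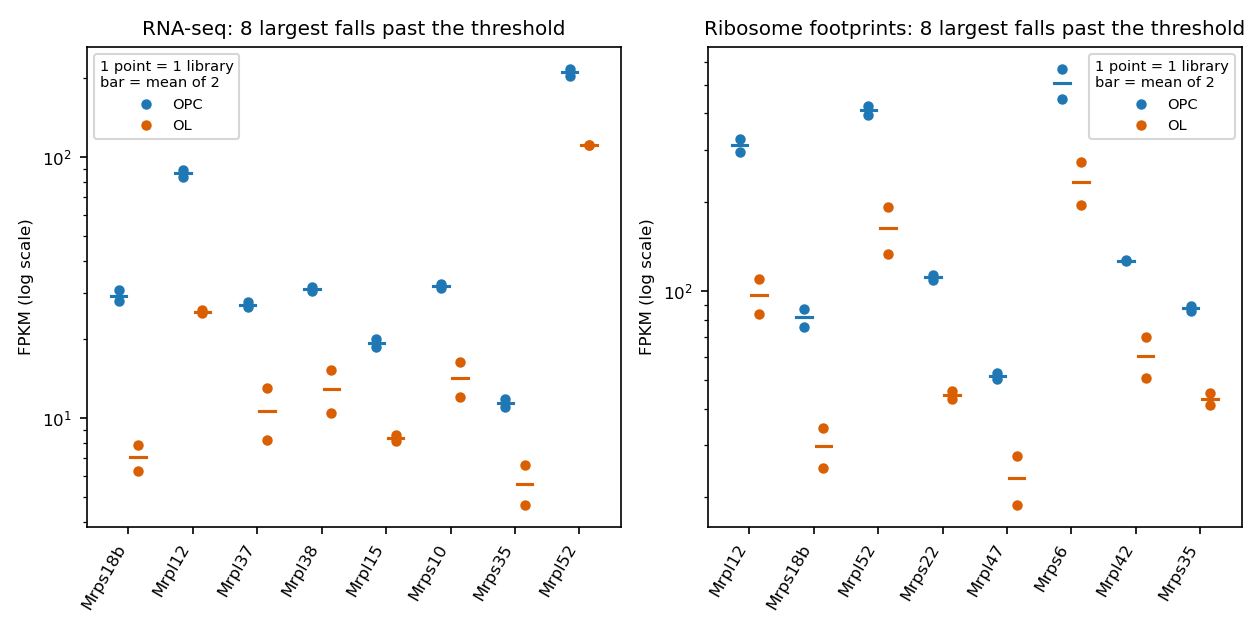
FPKM on a log axis for the members with the 8 largest falls past an adjusted p of 0.05 in RNA-seq (left) and in footprints (right), 1 point a library, blue for OPCs and orange for oligodendrocytes, with a bar at the mean of 2. In each of these members both oligodendrocyte points lie below both OPC points, as for Mrpl12 RNA at 25.3 and 25.9 FPKM against 83.9 and 89.4 FPKM. The members shown were chosen for their falls, which makes such a separation likely. Over all transcripts it held in 44.2% in RNA-seq and in 37.9% in footprints.

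Some members lay above OPCs or overlapped them. In the mt-SSU, Mrps21 had 54.9 and 80.0 FPKM in OPC RNA-seq and 89.2 and 90.8 FPKM in oligodendrocytes, and Mrps7, which binds near the decoding site, had 69.9 and 52.5 FPKM against 73.1 and 89.8 FPKM. Both lay above OPCs in RNA-seq without passing the test (log2 0.44 and 0.42), and overlapped them in footprints. Mrps12, whose bacterial homologue is the streptomycin-sensitivity protein of the decoding centre, had footprints of 71.5 and 64.9 FPKM in OPCs against 77.1 and 112 FPKM in oligodendrocytes (log2 0.44 ± 0.22 SE, limma adjusted p = 0.23), and passed the threshold only without oligodendrocyte replicate 1 (log2 0.71, adjusted p = 0.049). Mrps33 had 169 and 185 FPKM against 207 and 263 FPKM, with 80.6% of its CDS words found elsewhere in the genome. Mrps36, not a ribosome subunit, had footprints of 178 and 129.9 FPKM against 136 and 165 FPKM, which overlap, and 98.6% of its CDS words occur elsewhere. None of these 5 was called in either kind of library, which does not show that they kept their level.

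RD gives the footprints relative to the RNA of the same culture, and is the proxy the study used for translational efficiency. Within each culture the members had a higher RD than most transcripts. The median RD of the members was 3.21 and 2.95 in the OPC cultures, against 1.72 and 1.77 for all transcripts with both values, and 55 and 53 of the 60 lay above the latter. In the oligodendrocyte cultures it was 2.92 and 2.83 against 2.02 and 1.95, and 49 and 43 lay above. The distance to the other transcripts was therefore smaller in both oligodendrocyte cultures than in both OPC cultures. The mt-LSU and mt-SSU had similar medians, between 2.66 and 3.42 for the former and between 2.77 and 2.93 for the latter. Nuclear-encoded subunits of the respiratory chain and ATP synthase had medians close to those of the members, at 3.30 and 2.62 in OPCs and 2.81 and 2.66 in oligodendrocytes. Cytosolic ribosomal proteins, with medians of 2.65 and 2.63 in OPCs, stood at 1.66 and 1.56 in oligodendrocytes, below the median of all transcripts.

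The highest RD was that of Mrps14, at 15.1 and 13.03 in OPCs and 12.8 and 10.9 in oligodendrocytes. Mrps25 had 9.74 and 12.2 in OPCs and 13.5 and 12.0 in oligodendrocytes, and Mrpl19 had 9.14 and 8.63 in OPCs and 8.68 and 10.5 in oligodendrocytes. Mrpl35 had 11.03 and 9.53 in OPCs and 8.80 and 6.90 in oligodendrocytes. In Mrps14 and Mrpl35 both oligodendrocyte cultures lay below both OPC cultures, and in Mrps25 and Mrpl19 the groups overlapped. These 4 transcripts are listed with long 3' untranslated regions, of 2563, 5500, 4093 and 3105 bases in the order named, and RNA-seq FPKM divides by the whole listed length. Exons of Nr2c2 overlap 75.6% of Mrps25 from the other strand, and those of Gcfc2 39.2% of Mrpl19. Over the 60 members, mean log2 RD rose with transcript length (Spearman rho 0.37) and fell with mean RNA-seq FPKM (rho -0.55), of which the latter shares the RNA-seq value with RD. It also fell with the G+C content of the CDS (rho -0.38). With the shares of UUU among Phe codons and of AAA among Lys codons it rose (rho 0.31 and 0.27). The part of listed length in the RD order was not tested. The lowest were Mrps9, Mrpl2, Mrpl10 and Mrps18a. Mrpl2, in the catalytic core of the mt-LSU, had 1.15, 1.18, 1.17 and 0.939 in the cultures OPC 1, OPC 2, oligodendrocyte 1 and oligodendrocyte 2. In the same order, Mrpl10 had 1.46, 1.37, 1.61 and 0.962, and Mrps18a had 1.25, 1.67, 1.56 and 1.66. The groups overlapped in both.

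**Figure D3:**
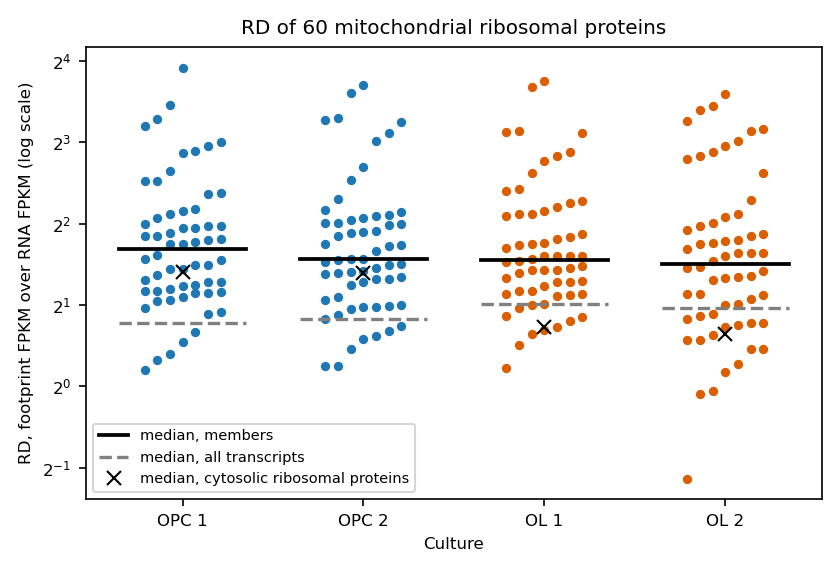
RD (footprint FPKM over RNA-seq FPKM, log axis) of the 60 members in each of the 4 cultures, 1 point a gene, with the median of the members (solid bar), of all transcripts (dashed bar) and of cytosolic ribosomal proteins (cross). The solid bar lies above the dashed bar in all 4 cultures, and the cross falls below the dashed bar in both oligodendrocyte cultures.

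No member changed its RD past the threshold. The interaction term called 0 of 60 members (limma adjusted p of at least 0.87), against 0.0124% of all transcripts, that is 1 of 8056, and had an unadjusted p below 0.05 in 1 member and in 4.8% of all transcripts. The median log2 change in RD was -0.10 over the members and 0.10 over all transcripts, with 38 of 60 members negative. These signs depend on the scaling between kinds of library, and the members' median differed from that of all transcripts by -0.21 to -0.20 with each of the 3 scalings. The 95% confidence interval of a member reached a median of 0.65 to either side on the log2 scale. The adjusted threshold asks for more than this interval, as Mrps10 shows, whose interval left out 0 without a call.

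The member with an unadjusted p below 0.05 was Mrps10, whose RD was 3.06 and 3.72 in OPCs and 4.62 and 7.37 in oligodendrocytes (log2 0.79, 95% interval 0.13 to 1.44, limma adjusted p = 0.87). Its transcript was lower in oligodendrocytes, with 32.6 and 31.4 FPKM against 16.4 and 12.0 FPKM (log2 -1.18 ± 0.22 SE, limma adjusted p = 0.012), whereas its footprints, 99.7 and 117 FPKM against 76.0 and 88.7 FPKM, were not called. The lowest RD change was that of Mrps9, which had 1.32 and 1.601 in OPCs and 1.42 and 0.455 in oligodendrocytes. Its footprints were 51.4 and 62.4 FPKM in OPCs but 34.5 and 13.7 FPKM in oligodendrocytes. It passed the RD threshold only without oligodendrocyte replicate 1 (log2 -1.67, adjusted p = 0.022), so this value rests on the other oligodendrocyte culture. In that analysis 9.23% of all transcripts were called lower in RD, against this 1 of 60 members (1.67%).

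The members were then set beside other genes of mitochondrial gene expression. Of 22 factors for mitoribosome assembly and rRNA modification, 4 were lower in RNA-seq (18.2%, against 20.2% of all transcripts) and 1 in footprints (4.55%, against 10.8%). Its calls were thus no more frequent than over all transcripts, while its medians, -0.59 in both, lay below those of all transcripts, -0.23 and -0.16, and near those of the members. The GTPase regulator Rcc1l, needed for assembly of the mt-LSU, was lower in both, with 19.3 and 16.4 FPKM in OPC RNA-seq against 3.67 and 4.19 FPKM. Mtg2, Mrm3 and Rbfa were lower in RNA-seq only. Of 13 genes for mitochondrial translation, 3 were lower in RNA-seq (23.1%) and 5 in footprints (38.5%), with medians of -0.78 and -0.58. Besides translation factors this list holds Oxa1l, Slirp and Lrpprc, and the footprint calls include Oxa1l and Slirp. Tufm, the elongation factor that brings tRNA to the mitoribosome, had footprints of 193 and 183 FPKM against 87.5 and 75.8 FPKM, and Tsfm, its exchange factor, had 66.0 and 60.03 FPKM against 24.7 and 27.6 FPKM, and both were lower in RNA-seq as well. Of 8 genes for mitochondrial transcription and DNA replication, Tfam and Tefm were lower in RNA-seq (25%) and Ssbp1 in footprints (12.5%), with medians of -0.78 and -0.71. None of these 3 lists had a member called higher. Mitoribosome proteins with other symbols were 4, of which Ptcd3 was lower in RNA-seq, at 34.8 and 53.9 FPKM against 19.1 and 21.3 FPKM.

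Subunits of the respiratory chain and ATP synthase encoded in the nucleus had medians near those of all transcripts. Of 58 tested, 6 were higher in RNA-seq (13% of all transcripts were) and 1 was lower (1.72%, against 20.2%), with a median log2 fold change of -0.09. In footprints 2 were higher (12.8% of all transcripts were) and 5 lower (8.62%, against 10.8%), with a median of -0.11. These medians lay 0.14 and 0.05 above those of all transcripts, whereas those of the mitochondrial ribosomal proteins differed from them by -0.25 and -0.47. Ndufa1, a complex I subunit, rose in both kinds of library, with 82.0 and 111 FPKM in OPC RNA-seq against 194 and 169.5 FPKM. Among the 55 cytosolic ribosomal proteins, 18 were lower in RNA-seq (32.7%, against 20.2% of all transcripts, median -0.55) and 54 in footprints (98.2%, against 10.8%, median -1.32). In RNA-seq they thus lay near the mitochondrial ribosomal proteins (median -0.49), and in footprints below them (median -0.63). The difference between these lists was described by counts and medians and was not tested. The proliferation markers, which fell with differentiation as given above, move with the falls of the mitochondrial ribosomal proteins, and their part was not tested.

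**Figure D4:**
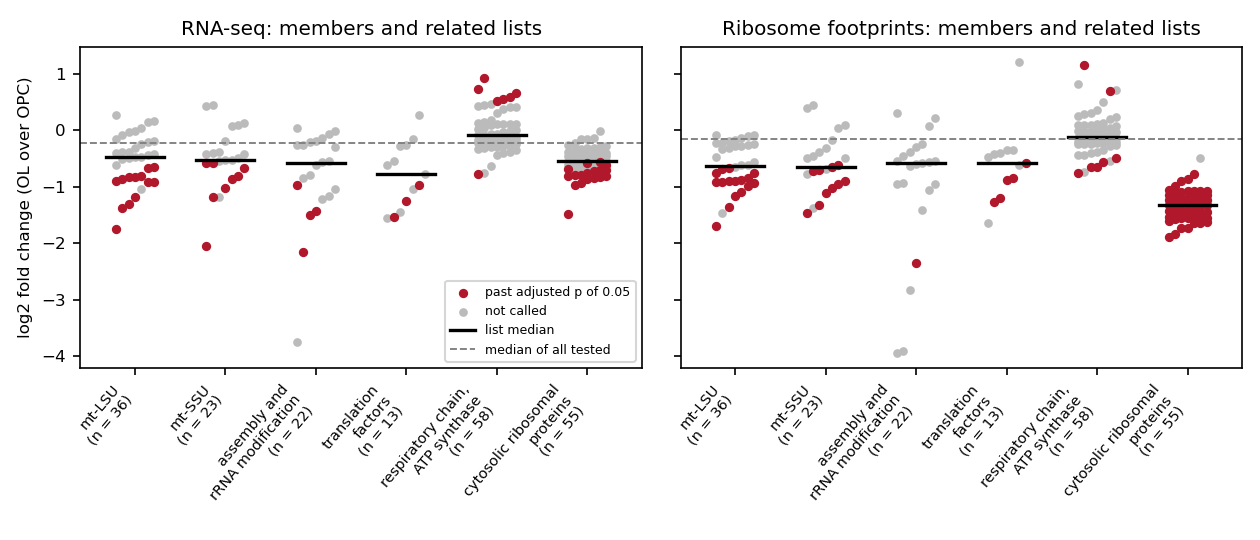
Log2 fold change (oligodendrocytes over OPCs) of each gene in RNA-seq (left) and footprints (right) for both mitoribosome subunits and 4 related lists, red where past an adjusted p of 0.05, with a bar at each list's median and a dashed line at the median of all transcripts tested. Cytosolic ribosomal proteins have their median at -1.32 in footprints against -0.55 in RNA-seq, and respiratory chain subunits lie near the dashed line in both.

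Features of the members that the choice by symbol did not use were also examined. The 60 genes lie on 15 chromosomes, with 10 on chromosome 11 and 7 each on chromosomes 6 and 17. Their CDS had a median of 580.5 bases against 1374 for all listed transcripts, while the G+C content of the CDS (53.0% against 53.1%) and the share of UUU among Phe codons (0.429 in both) were alike. The share of AAA among Lys codons was 0.406 against 0.368. Across the members, longer CDS went with a lower log2 fold change in RNA-seq (Spearman rho -0.40) and in footprints (rho -0.36), and the AAA share did so more weakly (rho -0.22 and -0.20). These are descriptions across genes of the same libraries.

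Overlaps between gene models could bear on some values, those on the other strand if reads were counted without regard to strand. Exons of antisense models overlap 18 members, 6 of them over more than 25% of the transcript, and same-strand models overlap 5. In 20 members more than 10% of the 30-base words of the CDS occur elsewhere in the genome. A set of 25 members had no overlapping exon and under 10% of such words, both in the CDS and in the whole transcript. Among these 25, 11 were lower in RNA-seq (20.2% of all transcripts were) and 13 in footprints (10.8% of all transcripts were). Their medians were -0.55 and -0.75, and those of all 60 members -0.49 and -0.63. The part of overlaps and shared words in the values was not tested beyond this.

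The factors NRF1, GABPA (an ETS factor) and YY1 are known to bind promoters of many nuclear genes for mitochondria, and the promoters of the members were searched for the letters of their motifs and of a TATA box. RefSeq promoter windows (GRCm38.p6, 250 bases before to 50 after a start) were found for 52 members and for 8870 listed genes in all, taking the window closest to the listed transcript. The NRF1 letters (GCGCA, any base, then GCGC) were found in 10 members (19.2%, against 9.44% of all windows), CCGGAAG (ETS) in 18 (34.6%, against 16.5%), AAGATGGCG (YY1) in 6 (11.5%, against 2.84%) and TATAAA in 3 (5.77%, against 7.86%), on either strand. No motif contains another. At least 1 of the first 3 was found in 31 members (59.6%) and in 25.9% of all windows. The windows run past the start, so matches can lie in coding sequence. The YY1 letters hold the start codon of the listed transcript in Mrps18a, Mrpl35 and Mrps24. In the window of Mrps11 they hold that of Mrpl46 on the other strand. How often this occurs over all windows was not examined. A match is a description of the letters and not of binding.

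Windows of 30 bases around a match are shown for a few members, chosen after their values were seen, so that members that fell and members that were not called can be set side by side. They run 5' to 3' on the strand of the gene, with the matching letters of either strand in capitals. The first 3 belong to members lower in at least 1 kind of library and the next 3 to members that were not called.

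Mrpl12, NRF1, chr11:120484546-120484575, plus strand: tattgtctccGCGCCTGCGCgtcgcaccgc
Mrps22, ETS, chr9:98601672-98601701, minus strand: aacctctcgagCCGGAAGttgctctatcga
Mrpl37, YY1, chr4:107066821-107066850, minus strand: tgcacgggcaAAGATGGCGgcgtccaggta
Mrpl9, NRF1, chr3:94443298-94443327, plus strand: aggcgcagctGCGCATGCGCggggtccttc
Mrpl33, ETS, chr5:31613937-31613966, plus strand: ccgcgcatgccCCGGAAGtagtcgttgagc
Mrps18a, YY1, chr17:46111005-46111034, plus strand: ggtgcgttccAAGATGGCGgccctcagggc

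Members with and without a motif were compared by their counts and medians. Of the 10 with the NRF1 letters, 3 were lower in RNA-seq and 4 in footprints, and of the other 42, 13 and 17 were, with 20.2% and 10.8% of all transcripts called lower. The medians were -0.46 and -0.68 with these letters, against -0.45 and -0.59 without. With the ETS letters 5 of 18 members were lower in RNA-seq and 8 in footprints, and of the other 34, 11 and 13 were. The medians were -0.40 and -0.59 with the ETS letters, against -0.50 and -0.62 without. With the YY1 letters 3 of 6 members were lower in RNA-seq and 4 in footprints, and of the other 46, 13 and 17 were. The medians were -0.63 and -0.81 with the YY1 letters, against -0.42 and -0.59 without. None of these differences was tested.

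Mrpl46 and Mrps11 are transcribed away from each other, from listed starts that leave 29 bases between them. This stretch is shown because both genes start from it. It holds none of the motifs searched, but the wider windows do, with the YY1 letters at -108 from the RefSeq start of Mrps11 and TATAAA at -131 from that of Mrpl46.

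Between Mrpl46 and Mrps11, chr7:78783090-78783118, plus strand: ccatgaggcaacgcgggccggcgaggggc

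Mrps11 was lower in both kinds of library, with RNA-seq values of 49.5 and 45.7 FPKM in OPCs against 32.7 and 30.6 FPKM in oligodendrocytes. Mrpl46 was called in neither, with 21.1 and 29.6 FPKM in OPC RNA-seq against 15.3 and 20.9 FPKM (log2 -0.48 ± 0.26 SE), and footprints of 48.3 and 44.1 FPKM against 41.2 and 45.6 FPKM. In footprints the groups were apart for Mrps11 and overlapped for Mrpl46. Exons of other Mrpl46 models overlap 16.4% of the Mrps11 transcript from the other strand.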

How the data were processed

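Footprints and total RNA of 2 OPC and 2 oligodendrocyte cultures were analysed from the authors' processed values, grouped as the labels give them. The deposited values are FPKM. The authors trimmed adapters, mapped reads to GRCm38 with HISAT2 2.1.0 and computed FPKM with StringTie 1.3.5 (versions from the submitters' processing notes) over canonical coding transcripts, taking whole transcripts in RNA-seq but coding sequence alone in footprints, so that values depend on the listed isoform and reads of other isoforms, pseudogenes or the opposite strand can enter them. The 2 cultures of a group have separate labels. The p-values rest on the spread between them and on a spread borrowed from the other transcripts tested.

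Differences were tested here on log2(FPKM + 0.1) by two-sided tests of limma 3.58.1 (R 4.3.3), with eBayes, a variance trend and Benjamini-Hochberg adjustment over every transcript whose mean reached 1 FPKM. The fitted log2 fold changes understate changes of low values, and folds are ratios of group means. Footprints and RNA-seq were fitted apart, and the RD change was the interaction term of a model over all 8 libraries. That model held no term for the culture shared by a footprint and an RNA-seq library. With a block for each culture, 0 of 8056 transcripts were called in either direction. Members and gene lists were chosen with earlier results of these data known. Values by library are given for the 5 highest and 5 lowest members, up to 8 largest falls in each kind of library, the 4 highest and 4 lowest by RD, RD changes with an unadjusted p under 0.05, the S18 paralogues and Mrps36, and members named beyond this were chosen after their values were seen. Coordinates, lengths and overlaps came from Gencode M21 (GRCm38). The fits and the depth estimate were also run on simulated data. The simulation for the fits drew independent noise for each library, without pairs or shared lysates. The simulation for depth does not settle the depth of the libraries used here.

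The study states that oligodendrocytes were made from the corresponding OPCs, and same-numbered cultures were read as these pairs. The main fits held no term for the pairs, so their standard errors and p-values are unpaired. Pairs entered the changes given culture by culture and the alternative with the cultures paired. Same-numbered cultures deviated together only weakly, with Pearson r of 0.11 in RNA-seq and 0.086 in footprints. Alternatives changed the pseudocount, the filter, the scaling, the trend, the pairing and the cultures used. Scaling to equal sums and, for RD, a block for each culture were added after the data were seen.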

Additional observations from a re-analysis of the deposited data

How the results depend on the processing

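With the cultures paired (replicate block), 25 members were lower in RNA-seq and 22 in footprints, in place of 21 and 26. These are 41.7% and 36.7%, against 24.8% and 9.63% of all transcripts. Pairing lost the footprint calls of Mrpl30, Mrpl47, Mrps5 and Mrps24 (adjusted p of 0.0545, 0.0570, 0.0823 and 0.0545), gained the RNA-seq calls of Mrpl42, Mrpl45, Mrps15 and Mrps22 (0.0030, 0.049, 0.042 and 0.0026) and changed no other call of a member.

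Counts of members called lower in RNA-seq were 9 with median-ratio scaling, 9 with sum scaling and 8 without the variance trend (15%, 15% and 13.3% of members, against 15.2%, 14.7% and 14.3% of all transcripts), and from 1 to 14 with a single culture left out. In footprints they were 10 with sum scaling, 2 without the trend (16.7% and 3.33%, against 6.75% and 4.38%), and from 0 to 25 with a culture left out. Leaving out a culture removes degrees of freedom and assumes that the lone culture varies like the others. Members called higher ranged from 0 to 1 in footprints, and members with a lower RD from 0 to 1, when a culture was left out, Mrps12 and Mrps9 being the exceptions without oligodendrocyte replicate 1, where 1034 of 8184 transcripts were higher in footprints and 730 of 7910 lower in RD. Median-ratio scaling moved the RNA-seq median of all transcripts from -0.23 to -0.05 and their calls from 60.9% lower to 48.5% lower, and sum scaling moved the footprint median from -0.16 to 0.15 and the calls from 45.9% to 28.4% lower. The members' median minus that of all transcripts ranged from -0.40 to -0.11 in RNA-seq and from -0.65 to -0.35 in footprints over all alternatives. No called member changed sign in any alternative. By the first depth estimate, RNA-seq depth was lowest in oligodendrocyte replicate 2, which may limit members such as Mrps18b. The step sizes that scored higher put the lowest RNA-seq depth in OPC replicate 2 instead.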
